A study of Homo sapiens with 18 samples.

Results

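KO3.20 is a line of the human melanoma cell line SKmel147 in which the gene ARID2 was targeted by CRISPR. It was represented by 2 RNA-seq libraries (R1 and R2) of the 10 made from SKmel147 and of the 18 in the series. They were chosen by their label and compared with the 4 control libraries, and then with the lines KO1.4 and KO1.5 to find what was particular to KO3.20. Per the labels, SKmel147 comes from a metastatic melanoma with the NRAS mutation Q61R. KO3.20, KO1.4, KO1.5 and the control line NT all carried a stably infected Cas9 lentivirus together with a PLKO vector for a guide RNA, and the control line Par carried no construct. The labels do not spell out NT, do not say whether a line is a clone or a pool, and do not say whether R1 and R2 of a line came from separate cultures. The p-values below thus rest on how far the libraries of a line vary, and part or all of that variation may be technical. KO3.20 is 1 line, so what sets it apart and what ARID2 loss did cannot be told apart.

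ARID2 is a DNA-binding subunit of PBAF, a form of the SWI/SNF complexes that use ATP to move nucleosomes and open chromatin. The other form, BAF, lacks ARID2 and carries ARID1A or ARID1B in its place. ARID2 is recurrently inactivated in melanoma, and in mouse melanoma cells PBAF is known to restrain the response to interferon.

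Totals ranged from 21266522 to 35670140 counts over the 10 SKmel147 libraries, with 32882075 and 29574266 in KO3.20. Counting error alone would give a chi-square near its degrees of freedom between R1 and R2 of a line, and the ratio was 29.638 in KO3.20 and 13.78 to 36.691 over the 5 lines. Reads on 28S ribosomal RNA made up 1.14% to 1.49% of the counts in KO3.20 R1, both KO1.4 libraries, KO1.5 R2 and NT R2. In the other 5 libraries their share was 0.399% to 0.509%. The neural crest factor SOX10, which marks melanoma cells, was high in all 10 libraries, at 145.8 to 249.5 CPM (counts scaled to library size, with TMM factors). Other genes of the melanocyte lineage had lower levels than SOX10, in KO3.20 as in the other lines. MITF had 11.2 and 12.9 CPM in KO3.20 and 12 to 17.75 CPM in the controls. MLANA had 1.07 and 1.46 CPM in KO3.20 and 0.684 to 1.43 CPM in the controls. TYR, DCT, PMEL and TYRP1 were under 1 CPM in KO3.20. So they were in the other lines, except TYRP1 and PMEL in Par R1, at 6.37 and 1.35 CPM. The melanocyte list, SOX10 included, summed to 607 to 617 CPM in KO3.20 and 490 to 623 CPM in the controls. Of 30 melanocyte genes, 14 were under 1 CPM in both KO3.20 libraries. Of 12 immune cell markers, all were under 1 CPM in both KO3.20 libraries, and 6 were at 0. The 12 fibroblast markers summed to 21.1 to 21.3 CPM in KO3.20, against 16.7 to 21.3 CPM in KO1.4 and KO1.5 and 11.2 to 14.7 CPM in the controls. The 10 endothelial markers summed to 36.5 to 42.3 CPM in KO3.20, against 35.2 to 57.3 CPM in KO1.4 and KO1.5 and 39.8 to 80.6 CPM in the controls.

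ARID2 itself was lower in KO3.20 than in the controls, but its RNA was still present. It had 39.8 and 46.8 CPM in KO3.20, against 56.5 and 57 CPM in KO1.4, 55.4 and 46 CPM in KO1.5, 66.9 and 62.3 CPM in NT and 72.8 and 67.3 CPM in Par. Both KO3.20 libraries lay below all 4 control libraries, and R2 lay within the range of KO1.5. The difference was −0.64 ± 0.11 against the controls, −0.39 ± 0.13 against KO1.4 and −0.23 ± 0.13 against KO1.5 (log2, SE; edgeR, BH-adjusted p = 0.00376, 0.205 and 0.408). The call against the controls was lost without KO3.20 R1, at a log2 change of −0.52 (edgeR, BH-adjusted p = 0.0892). Of 30 measured subunits of PBAF and BAF, 5 fell and 1 rose, where 6.11% of all tested genes were called lower and 6.49% higher. Those that fell included the ATPase SMARCA2, at −0.47 ± 0.10 on the log2 scale, whereas the PBAF subunits PBRM1 and BRD7 did not pass the test, at 0.17 ± 0.11 and −0.07 ± 0.10. No subunit passed the test against KO1.4 or KO1.5. Against the controls 0 and 1 subunits fell without KO3.20 R1 or R2, and 3 fell without NT R2 or any 1 library of KO1.4 or KO1.5.

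Against the mean of NT and Par, 2312 of 18361 tested genes passed the test in KO3.20 (12.6%), 1191 higher (6.49%) and 1121 lower (6.11%). The same test called 1610 genes in KO1.4 (8.77%) and 2056 in KO1.5 (11.2%), and 1702 between the 2 control lines NT and Par (9.27%). Directly between KO lines, KO3.20 differed from KO1.4 in 348 genes (1.9%), with 224 higher (1.22%) and 124 lower (0.675%) in KO3.20. From KO1.5 it differed in 964 genes (5.25%), with 552 higher (3.01%) and 412 lower (2.24%). A gene was taken as set apart in KO3.20 when it passed with 1 sign against the controls, against KO1.4 and against KO1.5. There were 109 such genes, 0.594% of those tested, with 60 higher (0.327%) and 49 lower (0.267%). These are counts of gene entries, and not all entries are separate observations. GAGE12C, GAGE12D and GAGE12E, for instance, had the same CPM in every library, and MAGED4 and MAGED4B moved together. In 55 of the 60 and 48 of the 49, both KO3.20 libraries lay beyond all 8 others. Of all tested genes, 5.85% lay above and 4.92% below all 8 others in this way. The genes set apart were chosen by tests on these same libraries, so their separation is not independent support. The 3 contrasts share the KO3.20 libraries, and 44 of the 109 genes also differed between NT and Par. With the counts of each line summed and the line as the replicate, edgeR called 0 genes between KO3.20 and the controls, with 1752 of 21060 at an unadjusted p under 0.05, and DESeq2 called 317. Without KO3.20 R1 or R2, which leaves 1 library for the line, 774 and 740 genes were called against the controls and 22 and 18 were set apart. The number set apart was also 23 and 17 without KO1.4 R1 or R2, 172 and 191 without Par R1 or R2, 293 with a correction of each library for GC content and length, and 236 without the filter on low counts. With the 28S share as a term, chosen after seeing the data, it was 162.

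Of the 109 genes, 60 passed the test against the controls in neither KO1.4 nor KO1.5. In KO1.4, 29 were called with the sign of KO3.20 and 7 with the opposite sign. In KO1.5, 14 were called with the sign of KO3.20 and 18 with the opposite sign. The genes set apart were therefore a mixture of changes not called in the other KO lines, of shared changes that were larger in KO3.20, and of genes that moved in the other direction elsewhere.

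**Figure D1:**
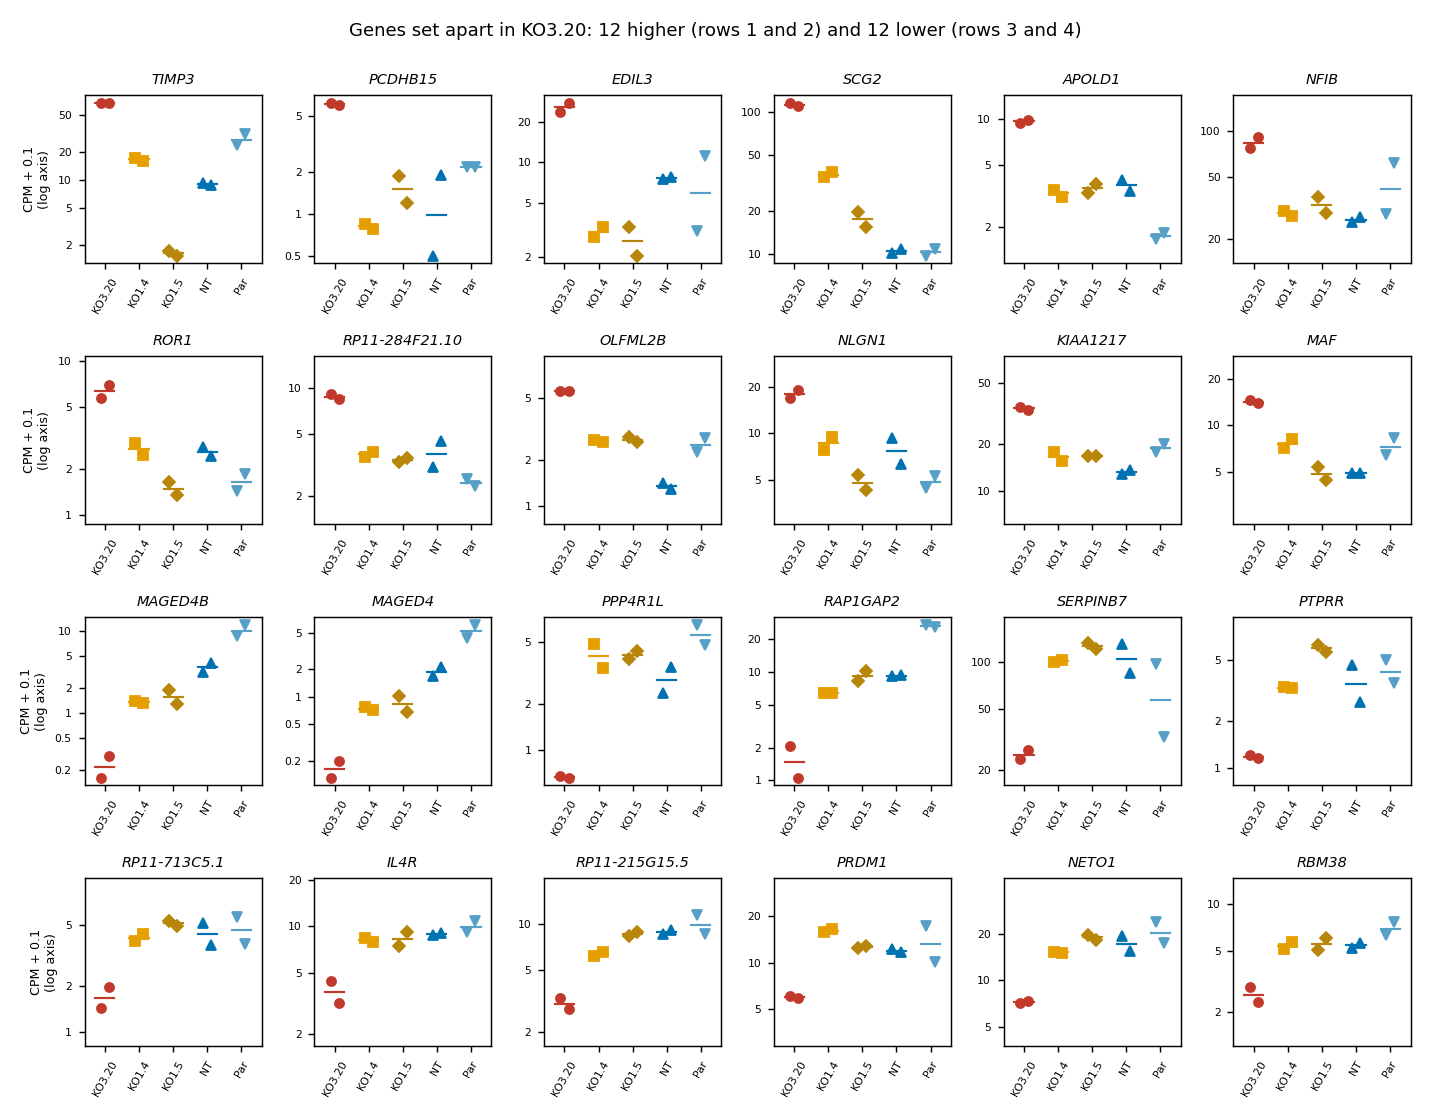
CPM plus 0.1 on a log axis in each of the 10 libraries for the 12 higher and 12 lower genes that the naming rule took from those set apart in KO3.20. Points are libraries, and short lines are geometric means of the 2 libraries of a line. Both KO3.20 points lie beyond all others in every panel, as the naming rule required.

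Among the genes higher in KO3.20 were secreted and matrix proteins. TIMP3, a matrix-bound inhibitor of metalloproteases, had 66.9 and 67 CPM in KO3.20, against 17.1 and 16 CPM in KO1.4, 1.63 and 1.43 CPM in KO1.5, 9.16 and 8.61 CPM in NT and 23.5 and 30.8 CPM in Par. The difference was 2.11 ± 0.12 against the controls, 2.02 ± 0.15 against KO1.4 and 5.44 ± 0.18 against KO1.5 (log2, SE; edgeR, BH-adjusted p = 1.68e-06, 2.43e-05 and 5.01e-08). It was highest in KO3.20 and lowest in KO1.5, where it fell below both controls, and the control lines themselves differed by −1.61 (NT minus Par, log2). FN1, which encodes fibronectin, had 306 and 294 CPM in KO3.20, against 167 and 162 CPM in KO1.4, 139.5 and 134 CPM in KO1.5, 73.1 and 76.1 CPM in NT and 179 and 185 CPM in Par. No other line reached the KO3.20 level, and NT was the lowest. The difference was 1.36 ± 0.08 against the controls, 0.87 ± 0.10 against KO1.4 and 1.13 ± 0.10 against KO1.5 (log2, SE; edgeR, BH-adjusted p = 2.02e-06, 0.000753 and 7.21e-05). EDIL3, a secreted ligand of integrins, had 23.5 and 27.5 CPM in KO3.20, against 2.69 and 3.2 CPM in KO1.4, 3.23 and 1.94 CPM in KO1.5, 7.4 and 7.74 CPM in NT and 3.03 and 11 CPM in Par. KO3.20 lay above all other lines, and Par R1 and Par R2 were far apart. The difference was 1.82 ± 0.34 against the controls, 3.10 ± 0.46 against KO1.4 and 3.29 ± 0.45 against KO1.5 (log2, SE; edgeR, BH-adjusted p = 0.00452, 0.0045 and 0.00164), and the call against the controls was lost without KO3.20 R2 (edgeR, BH-adjusted p = 0.0509). The call against KO1.4 was lost without either KO1.4 library (edgeR, BH-adjusted p = 0.0854 and 0.0876). OLFML2B, another extracellular matrix protein, changed by 1.66, 1.10 and 1.07 against the controls, KO1.4 and KO1.5 on the log2 scale.

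Growth factor and neuronal genes were also among those set apart on the higher side. For TGFA, SCG2 and SLITRK6 both other KO lines lay between KO3.20 and the controls. TGFA, which encodes the EGF receptor ligand transforming growth factor alpha, had 200.1 and 204 CPM in KO3.20, against 107 and 111 CPM in KO1.4, 101 and 79.4 CPM in KO1.5, 20.5 and 22.2 CPM in NT and 14.9 and 13.1 CPM in Par. The 3 KO lines did not overlap the controls, and KO3.20 did not overlap KO1.4 or KO1.5. The difference was 3.54 ± 0.11 against the controls, 0.89 ± 0.13 against KO1.4 and 1.17 ± 0.13 against KO1.5 (log2, SE; edgeR, BH-adjusted p = 1.68e-08, 0.0042 and 0.000426). The call against KO1.4 was lost without either KO1.4 library or without KO3.20 R2 (edgeR, BH-adjusted p = 0.0853, 0.0709 and 0.0567). SCG2, which encodes secretogranin II, a protein of secretory granules, had 116 and 109 CPM in KO3.20, against 34.6 and 37.7 CPM in KO1.4, 19.7 and 15.5 CPM in KO1.5, 10 and 10.7 CPM in NT and 9.65 and 10.8 CPM in Par. The order of the lines was KO3.20, KO1.4, KO1.5 and then the controls, with no overlap between these steps. The difference was 3.45 ± 0.11 against the controls, 1.64 ± 0.14 against KO1.4 and 2.68 ± 0.14 against KO1.5 (log2, SE; edgeR, BH-adjusted p = 1.96e-08, 6.62e-05 and 1.82e-06). SLITRK6, a neuronal membrane protein that guides neurite growth, had 17.6 and 21.7 CPM in KO3.20, against 9.63 and 11.6 CPM in KO1.4, 7.37 and 7.18 CPM in KO1.5, 3.77 and 2.7 CPM in NT and 1.71 and 1.85 CPM in Par. It followed the same order, and KO3.20 differed by 3.03, 0.89 and 1.43 from the controls, KO1.4 and KO1.5 on the log2 scale. NLGN1, a postsynaptic adhesion protein, had 16.8 and 18.9 CPM in KO3.20, against 7.74 and 9.38 CPM in KO1.4, 5.24 and 4.18 CPM in KO1.5, 9.27 and 6.2 CPM in NT and 4.35 and 5.16 CPM in Par. It did not follow that order, since KO1.5 lay within the range of the controls or below it, and it was not called in KO1.4 or KO1.5 against the controls, at 0.50 in KO1.4 and −0.36 in KO1.5. SCG2, SLITRK6 and NLGN1 were the 3 members of a list of 28 tested synaptic and neuronal genes that were set apart. Of all tested genes, 0.327% were set apart on the higher side. The list as a whole had 5 higher and 7 lower members, where 6.49% and 6.11% of all tested genes were called. The list had a median log2 change of 0.07, against −0.008 over all genes. Without KO3.20 R1 or R2, 2 and 4 members were lower. Its vesicle protein SV2A was lower in all 3 KO lines than in the controls, with 11.6 CPM in KO3.20 and 70.8 CPM in the controls.

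Several transcription factors were set apart on the higher side. HOXA5, a homeobox factor of positional identity, had 19.4 and 18.3 CPM in KO3.20, against 10.2 and 10.9 CPM in KO1.4, 9.8 and 9.6 CPM in KO1.5, 4.31 and 4.93 CPM in NT and 5.02 and 5.08 CPM in Par. All KO lines exceeded the controls and KO3.20 the other KO lines, by 1.97, 0.83 and 0.96 on the log2 scale against the controls, KO1.4 and KO1.5. Its neighbours HOXA3 and HOXA4 were also higher against the controls, at 1.29 ± 0.20 and 1.17 ± 0.24, but did not pass against KO1.4 or KO1.5. Of 33 tested HOX genes, 3 rose and 1 fell, where 6.49% of all tested genes were called higher and 6.11% lower. NFIB, a nuclear factor I family member, had 76.8 and 91.8 CPM in KO3.20, against 30.1 and 28.1 CPM in KO1.4, 37 and 29.4 CPM in KO1.5, 25.6 and 27.4 CPM in NT and 28.6 and 61.4 CPM in Par. Par R2 stood apart from the other controls and came nearest to KO3.20, and the difference was 1.29 ± 0.22 against the controls, 1.53 ± 0.27 against KO1.4 and 1.34 ± 0.27 against KO1.5 (log2, SE; edgeR, BH-adjusted p = 0.00279, 0.0133 and 0.0143). MAF, a bZIP factor, changed by 1.26, 0.91 and 1.56 and KLF9, a Krüppel-like factor induced by steroid hormones, by 1.85, 0.88 and 1.51 against the controls, KO1.4 and KO1.5. KLF9 was named after its values were seen. SOX2, a stem cell factor also used in the neural crest, had 2.66 and 2.52 CPM in KO3.20, against 0.331 and 0.344 CPM in KO1.4, 0.326 and 0.0733 CPM in KO1.5, 0.0679 and 0.468 CPM in NT and 0.758 and 1.33 CPM in Par. Its level was low in every line, and the call against the controls was lost under 3 of 18 alternatives.

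The remaining named genes on the higher side had varied roles. APOLD1, an early response gene of endothelial cells, the protocadherin PCDHB15, the receptor tyrosine kinase-like protein ROR1, KIAA1217 and the noncoding transcript RP11-284F21.10 changed by 1.96 ± 0.16, 1.995 ± 0.35, 1.68 ± 0.20, 1.12 ± 0.11 and 1.56 ± 0.18 against the controls (log2 ± SE). None of them passed the test in KO1.4 or KO1.5 against the controls. TLR4, the innate receptor for lipopolysaccharide, was named after its values were seen and had 57.8 and 60 CPM in KO3.20, against 33 and 34.6 CPM in KO1.4, 40.3 and 40.6 CPM in KO1.5, 33 and 28.9 CPM in NT and 36.8 and 27.8 CPM in Par. CELF2, an RNA-binding regulator of splicing, was the single gene eligible under the rule for opposite signs. It had 11.2 and 12.1 CPM in KO3.20, against 1.7 and 1.31 CPM in KO1.4, 4.26 and 4.07 CPM in KO1.5, 6.82 and 4.39 CPM in NT and 9.29 and 9.51 CPM in Par. Against the controls it was called higher in KO3.20, at 0.69 ± 0.18, and lower in the other KO lines, at −2.29 in KO1.4 and −0.80 in KO1.5. KO3.20 overlapped no control library, but against Par alone the difference was 0.315 (edgeR, BH-adjusted p = 0.347), and without KO3.20 R1 or R2 the call was lost as well (0.117 and 0.208).

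Inflammatory cytokines were among the genes set apart on the lower side. IL1B encodes the inflammasome-processed cytokine interleukin-1 beta, and IL8 (CXCL8) and CXCL1 encode chemokines that attract neutrophils. All of them are classical targets of NF-kB, and IL8 also of AP-1. The 250 bases before the transcription start, from RefSeq on GRCh38.p14, are shown because these 3 genes were all set apart on the lower side. They did not move alike in the other KO lines. Against the controls IL1B was called lower in KO1.4 and KO1.5, at −0.58 and −0.57 on the log2 scale. IL8, at 0.04 and 0.41, and CXCL1, at 0.05 and 0.44, were called in neither. Capitals mark matches, on either strand, to the AP-1 letters TGANTCA and the NF-kB letters GGNNTTTCC.
IL1B: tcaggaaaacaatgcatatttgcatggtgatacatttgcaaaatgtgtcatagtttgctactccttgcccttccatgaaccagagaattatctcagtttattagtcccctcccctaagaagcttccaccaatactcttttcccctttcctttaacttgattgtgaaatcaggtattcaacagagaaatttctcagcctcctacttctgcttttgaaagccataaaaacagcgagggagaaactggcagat
IL8: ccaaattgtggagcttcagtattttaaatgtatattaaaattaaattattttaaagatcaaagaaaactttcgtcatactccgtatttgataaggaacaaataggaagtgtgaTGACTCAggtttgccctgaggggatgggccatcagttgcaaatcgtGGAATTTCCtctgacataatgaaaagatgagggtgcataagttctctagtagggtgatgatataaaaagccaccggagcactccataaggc
CXCL1: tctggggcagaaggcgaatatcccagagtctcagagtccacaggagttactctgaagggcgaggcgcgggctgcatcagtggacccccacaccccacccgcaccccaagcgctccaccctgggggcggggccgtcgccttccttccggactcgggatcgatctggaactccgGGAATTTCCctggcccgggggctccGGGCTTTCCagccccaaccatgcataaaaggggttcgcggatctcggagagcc
The windows lie at chr2:112836780-112837029, minus strand, for IL1B, chr4:73740319-73740568, plus strand, for IL8, and chr4:73869143-73869392, plus strand, for CXCL1. IL8 held the AP-1 letters 137 to 131 bases and the NF-kB letters 91 to 83 bases before its start, and CXCL1 held the NF-kB letters at 78 to 70 and 53 to 45 bases. No 2 matches overlapped, and the IL1B window held neither. Among 35114 promoter windows of this length, 6.57% held the AP-1 letters and 5.48% the NF-kB letters.

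IL1B had 14.5 and 12.7 CPM in KO3.20, against 71 and 75.4 CPM in KO1.4, 77.7 and 70.5 CPM in KO1.5, 38.4 and 49.7 CPM in NT and 256 and 292 CPM in Par. KO3.20 was the lowest line and Par the highest, and NT lay below KO1.4 and KO1.5. The difference was −3.01 ± 0.14 against the controls, −2.43 ± 0.15 against KO1.4 and −2.45 ± 0.15 against KO1.5 (log2, SE; edgeR, BH-adjusted p = 4.62e-07, 1.04e-05 and 4.35e-06). IL8, which the naming rule did not reach and which was added after its values were seen, had 16.4 and 13.6 CPM in KO3.20, against 46.1 and 48.8 CPM in KO1.4, 72.7 and 50 CPM in KO1.5, 19.9 and 19.2 CPM in NT and 69.5 and 149 CPM in Par. Its difference was −1.62 ± 0.27 against the controls, −1.66 ± 0.29 against KO1.4 and −2.03 ± 0.29 against KO1.5 (log2, SE; edgeR, BH-adjusted p = 0.00228, 0.0133 and 0.00224). CXCL1 had 16.1 and 14.1 CPM in KO3.20, against 42 and 45.3 CPM in KO1.4, 57.7 and 56.5 CPM in KO1.5, 17.8 and 20.4 CPM in NT and 65.6 and 120.0 CPM in Par. Its difference was −1.48 ± 0.20 against the controls, −1.53 ± 0.23 against KO1.4 and −1.92 ± 0.23 against KO1.5 (log2, SE; edgeR, BH-adjusted p = 0.000772, 0.00475 and 0.000651). For both chemokines NT lay close to KO3.20. Against NT alone IL8 differed by −0.38 and CXCL1 by −0.34 (edgeR, BH-adjusted p = 0.490 and 0.4155), whereas IL1B kept its call. The contrasts with KO1.5 held when any library was left out. The contrast with KO1.4 was lost for IL8 without any KO1.4 or KO3.20 library, at adjusted p of 0.073 to 0.151, and for CXCL1 without KO1.4 R2 or KO3.20 R2 (edgeR, BH-adjusted p = 0.0676 and 0.0728).

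The list of cytokines and chemokines, with 16 tested genes, had a median log2 difference in KO3.20 of −0.34 against the controls, −0.76 against KO1.4 and −1.02 against KO1.5. Over all genes these medians were −0.008, −0.002 and 0.005. Of all tested genes, 6.11% were called lower and 6.49% higher against the controls. Against KO1.4, 5 of the 16 were lower and 0 higher, where the shares of all tested genes were 0.675% and 1.22%. Against KO1.5, 9 were lower and 0 higher, where those shares were 2.24% and 3.01%. Against the controls 4 were lower and 2, CXCL5 at 0.82 ± 0.14 and IL11 at 1.07 ± 0.27, were higher, and IL11 lost its call without either KO3.20 library (edgeR, BH-adjusted p = 0.207 and 0.061). CCL2, which attracts monocytes, had 0.673 and 0.797 CPM in KO3.20, against 2.27 and 3.06 CPM in KO1.4, 4.62 and 3.85 CPM in KO1.5, 1.05 and 1.33 CPM in NT and 3.0 and 7.57 CPM in Par. It passed against the controls and KO1.5 but not against KO1.4 (edgeR, BH-adjusted p = 0.0539), and the call against the controls was lost without either KO3.20 library. IL6 had 5.47 and 6.71 CPM in KO3.20, against 12.7 and 12.4 CPM in KO1.4, 15.8 and 15.7 CPM in KO1.5, 2.34 and 2.41 CPM in NT and 5.64 and 13.1 CPM in Par, and it was lower than in KO1.5 but did not pass against KO1.4 or the controls. NT minus Par had a median of −1.23 over the same list, a larger difference than that between KO3.20 and the mean of the controls. The receptors IL4R and IL6R were also set apart on the lower side. IL4R had 4.31 and 3.06 CPM in KO3.20, against 8.31 and 7.77 CPM in KO1.4, 7.34 and 9.05 CPM in KO1.5, 8.59 and 8.86 CPM in NT and 9.04 and 10.7 CPM in Par. IL6R, named after its values were seen, changed by −0.88, −0.86 and −1.20 against the controls, KO1.4 and KO1.5. Of the 17 AP-1 factors tested, 3 fell against the controls, among them JUN at −0.62 ± 0.12, and 2 rose, and 0 fell without KO3.20 R2.

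**Figure D2:**
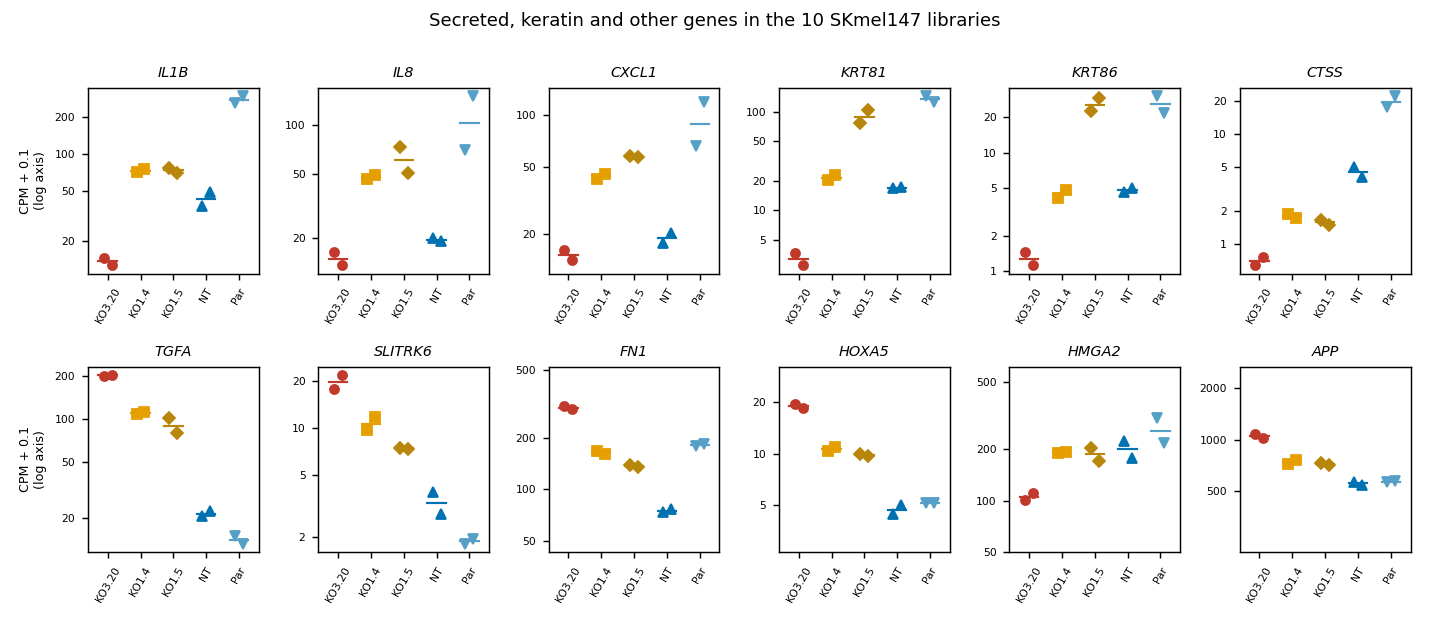
CPM plus 0.1 on a log axis in each of the 10 libraries for 12 genes described in the text. Points are libraries and short lines are geometric means of the 2 libraries of a line. KO3.20 is the lowest line for IL1B, KRT81 and HMGA2 and the highest for TGFA, FN1 and APP, and NT lies close to KO3.20 for IL8 and CXCL1.

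Neighbouring hair keratin genes were also set apart on the lower side. These type II keratins of chromosome 12 form the filaments of the hair shaft, and they were named after their values were seen. KRT81 had 3.55 and 2.66 CPM in KO3.20, against 20.1 and 22.4 CPM in KO1.4, 77.2 and 104 CPM in KO1.5, 16.6 and 16.9 CPM in NT and 144 and 126 CPM in Par. It was lowest in KO3.20, while KO1.4 lay near NT and KO1.5 near Par. The difference was −3.93 ± 0.18 against the controls, −2.77 ± 0.19 against KO1.4 and −4.86 ± 0.20 against KO1.5 (log2, SE; edgeR, BH-adjusted p = 4.62e-07, 1.75e-05 and 1.91e-07). KRT86 had 1.34 and 1.03 CPM in KO3.20, against 4.01 and 4.74 CPM in KO1.4, 22.3 and 28.6 CPM in KO1.5, 4.58 and 4.9 CPM in NT and 29.8 and 21.7 CPM in Par. It too was lowest in KO3.20, with KO1.4 near NT and KO1.5 near Par. KRT83 had 0.0306 and 0 CPM in KO3.20, and 0.611 to 2.89 CPM in the 4 control libraries. In KO1.5 these genes were called higher against the mean of NT and Par, at 0.93 for KRT81 and 1.63 for KRT83. For KRT81 and KRT86, however, the KO1.5 means of 90.4 and 25.4 CPM lay between those of NT (16.8 and 4.74 CPM) and Par (134.8 and 25.7 CPM). Only KRT83, with a mean of 4.23 CPM in KO1.5, lay above both control lines. The keratin-associated gene KRTAP2-1, on chromosome 17, changed by −1.33, −0.86 and −1.97 against the controls, KO1.4 and KO1.5. NT and Par differed by −3.01 in KRT81 and −2.44 in KRT86. Hair keratins are close paralogs whose reads the counting could split, so the values of single members are uncertain.

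Other genes were far below the controls in KO3.20. MAGED4B and MAGED4, X-linked members of the melanoma antigen family with near-identical sequences, had 0.0612 and 0.199 CPM and 0.0306 and 0.0996 CPM in KO3.20. In the 4 control libraries they had 3.12 to 11.96 CPM and 1.56 to 5.98 CPM. Both were also called lower than the controls in the other KO lines, at −2.24 and −2.23 in KO1.4 and −1.99 and −1.98 in KO1.5. MAGED4B had 1.28 CPM in KO1.4 and 1.5 CPM in KO1.5 on average, so its fall was shared and larger in KO3.20. The KO3.20 values rest on 2 and 6 counts for MAGED4B and 1 and 3 for MAGED4. The counts of the pair ran in parallel, with 92, 110, 308 and 278 for MAGED4B in NT R1, NT R2, Par R1 and Par R2. MAGED4 had 46, 55, 153 and 139 there, so the pair counts as 1 observation. How reads were assigned to the pair was not tested. RAP1GAP2, an activator of the GTPase activity of Rap1, had 1.99 and 0.963 CPM in KO3.20, against 6.23 and 6.33 CPM in KO1.4, 8.17 and 10.1 CPM in KO1.5, 8.99 and 9.26 CPM in NT and 27 and 25.9 CPM in Par, and its difference was −3.38 ± 0.24 against the controls, −2.08 ± 0.26 against KO1.4 and −2.62 ± 0.26 against KO1.5 (log2, SE; edgeR, BH-adjusted p = 7.56e-06, 0.00193 and 0.000201). CTSS, the lysosomal protease cathepsin S, had 0.55 and 0.664 CPM in KO3.20, against 1.79 and 1.65 CPM in KO1.4, 1.57 and 1.39 CPM in KO1.5, 4.96 and 4.0 CPM in NT and 17.4 and 21.8 CPM in Par. It was lower in all KO lines than in the controls, and lowest in KO3.20. MGLL, a monoacylglycerol lipase, was named after its values were seen and had 12.9 and 13.2 CPM in KO3.20, against 31.3 and 28.4 CPM in KO1.4, 33.6 and 35.9 CPM in KO1.5, 32.9 and 38.3 CPM in NT and 114 and 99.3 CPM in Par. KO1.4 and KO1.5 lay near NT, KO3.20 lay below them, and Par was the highest.

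More moderate falls reached signalling and regulatory genes. SERPINB7, an epithelial serpin, had 23.6 and 26.9 CPM in KO3.20, against 100.1 and 104 CPM in KO1.4, 133 and 122 CPM in KO1.5, 132 and 84.8 CPM in NT and 98 and 33 CPM in Par, and Par R2 lay close to KO3.20. PTPRR, a phosphatase of MAP kinases, had 1.1 and 1.06 CPM in KO3.20, against 3.26 and 3.16 CPM in KO1.4, 6.16 and 5.54 CPM in KO1.5, 4.51 and 2.56 CPM in NT and 4.85 and 3.44 CPM in Par, and its difference was −1.83 ± 0.28 against the controls, −1.56 ± 0.31 against KO1.4 and −2.43 ± 0.30 against KO1.5 (log2, SE; edgeR, BH-adjusted p = 0.00128, 0.0233 and 0.00083). PRDM1, the transcriptional repressor BLIMP1, had 5.96 and 5.81 CPM in KO3.20, against 15.7 and 16.4 CPM in KO1.4, 12.3 and 12.7 CPM in KO1.5, 12.2 and 11.6 CPM in NT and 17.2 and 10 CPM in Par. NETO1, an auxiliary subunit of glutamate receptors, had 7.09 and 7.27 CPM in KO3.20, against 15.2 and 15.1 CPM in KO1.4, 19.7 and 18.2 CPM in KO1.5, 19.3 and 15.3 CPM in NT and 23.8 and 17.2 CPM in Par. HMGA2, an architectural chromatin protein, had 100.4 and 111 CPM in KO3.20, against 189.9 and 194 CPM in KO1.4, 204 and 172 CPM in KO1.5, 224 and 179 CPM in NT and 304 and 219 CPM in Par, and its difference was −1.12 ± 0.15 against the controls, −0.86 ± 0.16 against KO1.4 and −0.83 ± 0.16 against KO1.5 (log2, SE; edgeR, BH-adjusted p = 0.000543, 0.0188 and 0.0135). The sphingosine 1-phosphate receptor S1PR1 and the aldehyde oxidase AOX1 changed by −1.36, −0.91 and −1.38 and by −1.69, −1.001 and −2.16 against the controls, KO1.4 and KO1.5. HMGA2, S1PR1 and AOX1 were named after their values were seen. The noncoding transcripts RP11-713C5.1 and RP11-215G15.5 changed by −1.48 ± 0.25 and −1.65 ± 0.18 against the controls.

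Of 53 named genes that were set apart, 10 kept all 3 calls under every alternative except the line as replicate and, for FN1, the 2-fold limit, which its log2 difference of 0.87 from KO1.4 does not reach. These were TIMP3, FN1, SCG2 and APOLD1 on the higher side, and IL1B, KRT81, KRT86, MGLL, PPP4R1L and RAP1GAP2 on the lower side. For 17 others the calls that were lost were against KO1.4 alone, and 14 lost the call against the controls under at least 1 alternative, the line as replicate and the 2-fold limit not counted.

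Genes of 2 whole chromosomes stood apart in KO3.20. The chromosome values rest on tested genes with a mean count of 20 or more over the 10 libraries. Over 341 such genes of chromosome 20 the median log2 difference was −0.29 against the controls, −0.33 against KO1.4 and −0.29 against KO1.5. These are 0.819, 0.798 and 0.816 times the level there. Over 135 such genes of chromosome 21 the median was 0.36, 0.35 and 0.31, or 1.29, 1.28 and 1.24 times. Relative to the controls, 83.6% of the chromosome 20 genes were lower and 86.7% of the chromosome 21 genes were higher. Of these genes on chromosome 20, 82 were called lower (24.0%) and 12 higher, and on chromosome 21, 50 were called higher (37.0%) and 3 lower. Of all tested genes, which include those with lower counts, 6.11% were called lower and 6.49% higher. In the single libraries the chromosome 20 median was −0.235 and −0.301 in KO3.20, and −0.056 to 0.082 in the other 8. The chromosome 21 median was 0.36 and 0.399 in KO3.20, and −0.045 to 0.1 in the other 8. The medians of the other chromosomes lay between −0.144 and 0.146 against the controls, between −0.045 and 0.236 against KO1.4 and between −0.149 and 0.175 against KO1.5. The value of 0.236 belongs to chromosome 9, whose genes were lower in KO1.4.

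The shifts ran along the whole of both chromosomes. The same genes were put in map order and cut into 3 equal groups. Those of chromosome 20 had medians of −0.251, −0.27 and −0.328 against the controls, and those of chromosome 21 had 0.37, 0.425 and 0.267. DNA was not analysed here, so the number of gene copies and the RNA made per copy cannot be told apart, and in bulk RNA neither can fewer cells of a kind and less RNA per cell.

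**Figure D3:**
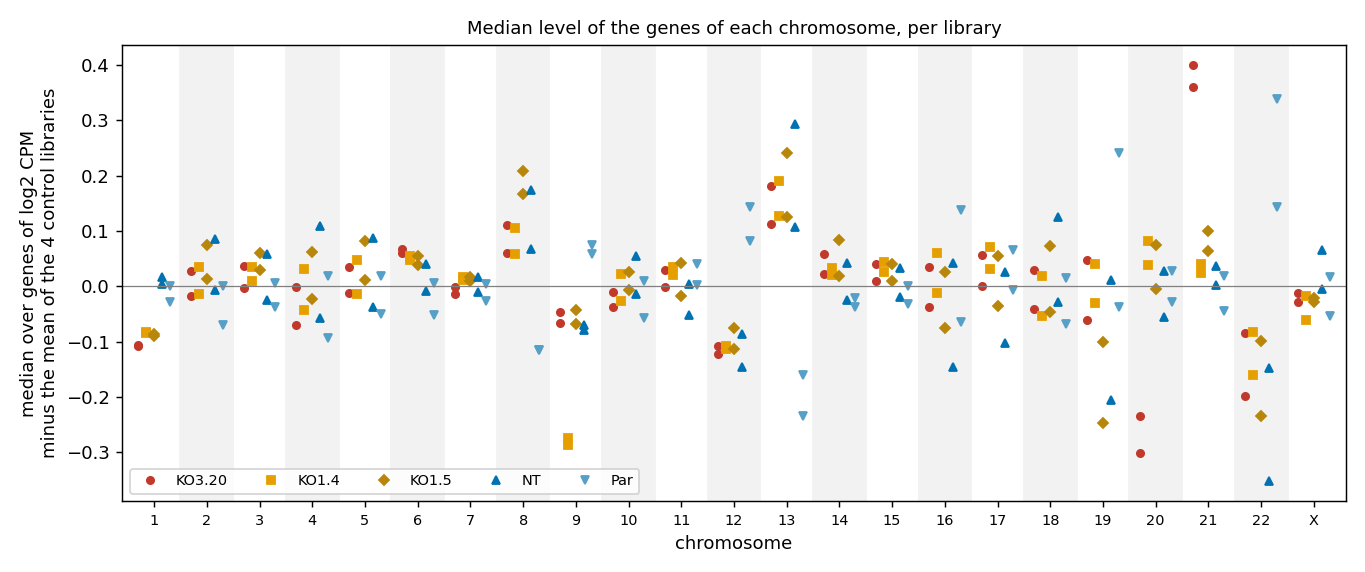
Median, over the tested genes of each chromosome with a mean count of 20 or more, of log2 CPM minus the mean of the 4 control libraries, with 1 point per library. The KO3.20 points are at −0.235 and −0.301 on chromosome 20 and at 0.36 and 0.399 on chromosome 21, outside the other 8 libraries, and the KO1.4 points stand apart on chromosome 9.

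Of the 109 genes set apart, 13 lie on these chromosomes, 10 lower on chromosome 20 and 3 higher on chromosome 21. The other 96 lie elsewhere or have no chromosome assigned. Among the 2312 genes called against the controls, 151 lie on these chromosomes and 2161 lie elsewhere or have none assigned. A chromosome was known for 105 of the 109 genes and for 83.5% of all tested genes. PPP4R1L, a relative of a regulatory subunit of phosphatase 4, fell far more than its chromosome, with 0.581 and 0.565 CPM in KO3.20, against 4.77 and 3.33 CPM in KO1.4, 3.79 and 4.33 CPM in KO1.5, 2.24 and 3.35 CPM in NT and 6.4 and 4.73 CPM in Par. RBM38, an RNA-binding target of p53, also exceeded the median of chromosome 20, at −1.26, −1.07 and −1.10 against the controls, KO1.4 and KO1.5. FKBP1A, the binding protein of the drug rapamycin, was closer to it, with 329.9 and 322 CPM in KO3.20, against 468 and 497 CPM in KO1.4, 538 and 565 CPM in KO1.5, 456 and 442 CPM in NT and 506 and 446 CPM in Par. BMP2, a secreted ligand of the TGF-beta family, had 10.2 and 10.9 CPM in KO3.20, against 19.8 and 21.5 CPM in KO1.4, 23.5 and 22.4 CPM in KO1.5, 13.6 and 15.6 CPM in NT and 17.8 and 14.4 CPM in Par. It was lower in KO3.20 and higher in KO1.5 than in the controls. The transglutaminase TGM2, the phosphatase PTPN1 and the tumour protein family member TPD52L2 changed by −0.59 ± 0.15, −0.41 ± 0.09 and −0.89 ± 0.10 against the controls. On chromosome 21, APP, the amyloid precursor protein, had 1088 and 1024 CPM in KO3.20, against 717 and 757 CPM in KO1.4, 729.5 and 714 CPM in KO1.5, 569 and 542 CPM in NT and 563 and 577 CPM in Par. All KO lines were above the controls and KO3.20 was the highest, by 0.91, 0.52 and 0.55 against the controls, KO1.4 and KO1.5. SUMO3, a ubiquitin-like modifier, was at 0.43 ± 0.09 against the controls. BMP2 follows from the naming rule, as do PPP4R1L and RBM38, and the other genes of this paragraph were named after their values were seen.

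Some gene lists held members on chromosome 20, and these members did not all follow its median. COL9A3 and SNAP25 were called higher than in the controls, at 2.35 ± 0.39 and 1.55 ± 0.22 on the log2 scale, and several members did not pass. Of 34 genes of G2/M and mitosis, 4 fell and 0 rose against the controls, where 6.11% and 6.49% of all tested genes did. The list median was −0.07, and UBE2C and TPX2 among the 4 lie on chromosome 20. Of 36 genes of DNA replication, 4 fell and 0 rose, with a median of −0.10, and GINS1 and PCNA lie there. UBE2C had 89 CPM in KO3.20 and 117 CPM in the controls on average. The mitosis count was 0 without either KO3.20 library and 1 without KO1.4 R1. The replication count was 1 and 0 without KO3.20 R1 or R2, 1 without NT R1 or either KO1.4 library, and 7 without Par R1. The apoptosis inhibitor BCL2L1, with 68.8 CPM in KO3.20 and 101 CPM in the controls, is also on chromosome 20. So are the stress response factors CEBPB and TRIB3. CEBPB had 9.32 CPM in KO3.20 and 27.6 CPM in the controls, and TRIB3 had 18.7 CPM and 37.3 CPM. Against the controls CEBPB changed by −1.45 in KO3.20, −0.67 in KO1.4 and −0.75 in KO1.5 on the log2 scale. For TRIB3 these values were −0.99, −0.40 and −0.57. The chromosome 20 medians against the controls were 0.05 in KO1.4 and 0.03 in KO1.5.

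The largest changes against the controls were mostly not particular to KO3.20. Beside TGFA and SCG2, the rule on size named CHODL, TSSC2, ERBB3, SLITRK6, EGR1 and PTCHD4 on the higher side. CHODL, a membrane lectin of chromosome 21, had 4.1 and 3.98 CPM in KO3.20, against 5.86 and 6.84 CPM in KO1.4, 1.42 and 0.733 CPM in KO1.5, 0.984 and 0.648 CPM in NT and 0.0842 and 0 CPM in Par. KO3.20 and KO1.4 lay above the other lines, and KO3.20 was called higher than KO1.5, at 1.88 on the log2 scale (edgeR, BH-adjusted p = 0.0097). TSSC2 had 10.3 and 9.2 CPM in KO3.20, against 0.567 and 0.481 CPM in KO1.4, 13.7 and 16.6 CPM in KO1.5, 0.305 and 0.576 CPM in NT and 0.449 and 0.817 CPM in Par. It was shared with KO1.5, and the KO1.4 libraries lay within the range of the controls. ERBB3, a receptor for neuregulins, had 17.3 and 16.8 CPM in KO3.20, against 10.2 and 7.87 CPM in KO1.4, 2.93 and 3.56 CPM in KO1.5, 1.63 and 3.64 CPM in NT and 1.35 and 1.64 CPM in Par. It passed against KO1.5 but not against KO1.4 (edgeR, BH-adjusted p = 0.144). EGR1, an immediate early factor, was at 2.56 ± 0.17 against the controls and passed against KO1.5 only. PTCHD4, a p53-induced member of the patched family, was at 2.35 ± 0.19 and passed against neither.

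On the lower side the rule on size named CPVL, SAGE1, UCA1, MAGED4B, DAPK1, MAGED4, CD33 and ZNF660. CPVL, a carboxypeptidase, had 0 counts in both KO3.20 libraries, which is at least 64.2-fold lower than the control mean of 3.07 CPM, taking 3 counts over both libraries (0.0478 CPM) as the floor. SAGE1, a cancer-testis antigen, had 0 counts in all 6 KO libraries and was at least 86.8-fold lower in KO3.20 than the control mean, but only NT expressed it. It had 8.48 and 7.92 CPM in NT, and 0 and 0.172 CPM in Par. DAPK1, a death-associated kinase, had 0.153 and 0.0332 CPM in KO3.20, against 0.189 and 0.447 CPM in KO1.4, 7.49 and 5.5 CPM in KO1.5, 3.16 and 3.82 CPM in NT and 6.71 and 4.95 CPM in Par. It was low in KO3.20 and KO1.4 and not in KO1.5. CD33, a sialic acid receptor, had 0.703 and 0.631 CPM in KO3.20, against 5.38 and 4.23 CPM in KO1.4, 1.01 and 0.843 CPM in KO1.5, 23.2 and 24.6 CPM in NT and 29.4 and 21.4 CPM in Par. It was lowest in KO3.20 and KO1.5. The noncoding RNA UCA1, at −5.89 ± 0.74, and the zinc finger gene ZNF660, at −4.53 ± 0.28, were low in KO3.20 as well, and ZNF660 was called lower in the other KO lines as well.

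Among the pathway lists, the 24 genes of cholesterol synthesis and uptake had 14 members lower and 1 higher in KO3.20 than in the controls. The median log2 change was −0.54, and of all tested genes 6.11% were called lower and 6.49% higher. SQLE, the squalene epoxidase, had 54.8 and 52.2 CPM in KO3.20, against 55.2 and 62.8 CPM in KO1.4, 94.5 and 92.6 CPM in KO1.5, 108 and 85.3 CPM in NT and 113 and 84.1 CPM in Par. Both KO3.20 libraries lay below all 4 control libraries and both KO1.5 libraries. Against KO1.4 no member passed, and against KO1.5 1 was lower and 1 higher, where 2.24% and 3.01% of all tested genes were. The count of lower members was 4 against NT alone, and 5 and 2 without KO3.20 R1 or R2. NT minus Par had a median of −0.34 over the list.

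In the list of 26 tested genes for amino acid synthesis and the integrated stress response, 13 were lower and 2 higher than in the controls. The median was −0.51, and of all tested genes 6.11% were called lower and 6.49% higher. ATF4, the central factor of this response, had 251 and 248 CPM in KO3.20, against 236 and 252 CPM in KO1.4, 242 and 274 CPM in KO1.5, 333 and 400.4 CPM in NT and 417 and 430.4 CPM in Par. SHMT2, of mitochondrial serine use, had 82.4 CPM in KO3.20 and 179 CPM in the controls, and ALDH1L2, of mitochondrial folate, 0.561 CPM in KO3.20 and 8.27 CPM in the controls. None of the list passed against KO1.4, and the medians were −0.06 against KO1.4 and 0.13 against KO1.5. The lower count was 6 and 7 without KO3.20 R1 or R2. NT minus Par had a median of 0.25.

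Of 27 tested genes of antigen presentation, 13 were higher and 2 lower in KO3.20 than in the controls, with a median log2 change of 0.62, where 6.49% of all tested genes were called higher and 6.11% lower. In KO1.4, 14 were higher and 2 lower than in the controls, with a median of 0.97. Of all 18361 tested genes, 729 were called higher and 881 lower in KO1.4. NT minus Par had a median of −0.76 with 12 members lower, a larger difference than that between KO3.20 and the mean of the controls. Of all tested genes, 1000 were called lower in NT than in Par. HLA-DRA, a class II chain, had 3597 and 3462 CPM in KO3.20, against 2945 and 2845 CPM in KO1.4, 1547 and 1449 CPM in KO1.5, 758 and 890.2 CPM in NT and 825 and 1789 CPM in Par. Par R2 stood above the other 3 control libraries, and KO3.20 lay above all of them and above KO1.4. CIITA, the master regulator of class II genes, had 122 and 116 CPM in KO3.20, against 102 and 93.1 CPM in KO1.4, 41.2 and 44.8 CPM in KO1.5, 24.1 and 36.6 CPM in NT and 32.2 and 72 CPM in Par, and HLA-DMB, of the peptide exchange factor, was at 2.19 ± 0.18. B2M, the light chain of class I, did not pass, at −0.31 ± 0.10, but was called lower against Par alone and without Par R1 (edgeR, BH-adjusted p = 0.0195 and 0.0246). Against KO1.5, 7 members were higher and 2 lower, where the shares of all tested genes were 3.01% and 2.24%. Against KO1.4 0 were higher and 1, CTSS, was lower, where those shares were 1.22% and 0.675%. HLA genes are similar in sequence, and their counts are uncertain for that reason. The higher count was 8 against Par alone, and the lower count was 5 without Par R1 and 1 without either KO3.20 library. Of 28 interferon-stimulated genes, 7 were higher and 1 lower than in the controls, with a median of 0.295, while NT minus Par had a median of −0.72 with 11 members lower. Among them were IFIT1 at 1.24 ± 0.21 and GBP1, a guanylate-binding protein, at −2.12 ± 0.21. The higher count of that list was 4 without either KO3.20 library and against Par alone.

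Targets of p53 differed mainly between KO3.20 and KO1.5. Of 28 tested targets, 6 were higher and 1 lower in KO3.20 than in the controls, with a median of 0.26, where the shares of all tested genes were 6.49% and 6.11%. Against KO1.5, 1 was higher and 8 were lower, with a median of −0.44, where the shares of all tested genes were 3.01% and 2.24%, and against KO1.4 none passed, with a median of 0.05. CDKN1A, the cell cycle inhibitor p21, had 155 and 142 CPM in KO3.20, against 152 and 152 CPM in KO1.4, 252 and 261 CPM in KO1.5, 106 and 119 CPM in NT and 148 and 121 CPM in Par. KO1.5 stood above all other lines, and KO3.20 overlapped KO1.4. FUCA1, a lysosomal fucosidase, went the other way, with 9.62 CPM in KO3.20 and 2.19 CPM in the controls, and was higher than in KO1.5. The higher count against the controls was 3 and 2 without KO3.20 R1 or R2, and 10 without Par R1.

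**Figure D4:**
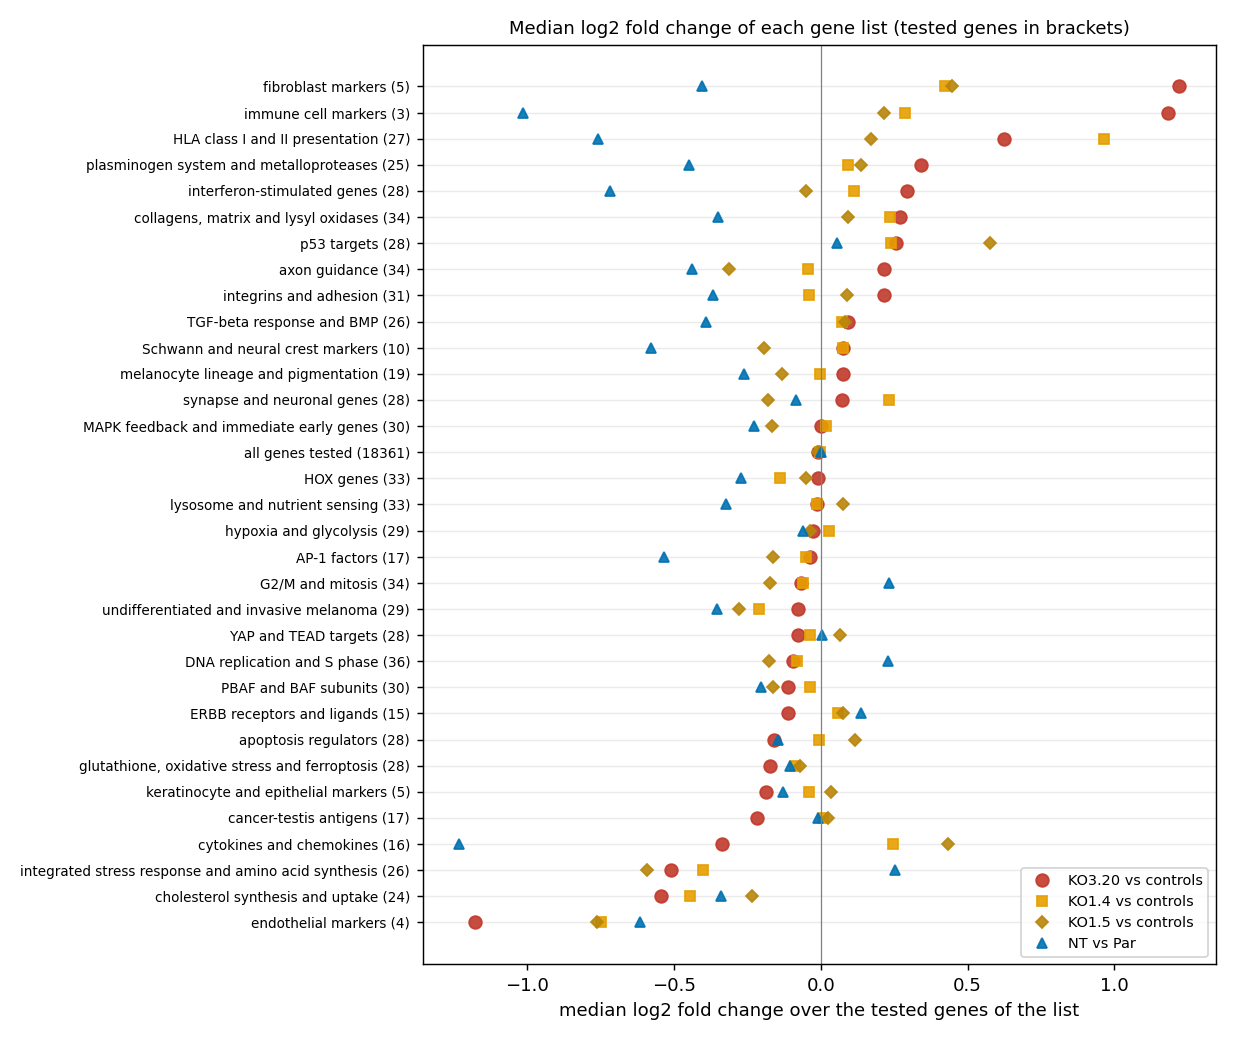
Median log2 fold change over the tested genes of each list, with 1 point for KO3.20, KO1.4 and KO1.5 against the controls and 1 for NT against Par. The comparisons of the KO lines share the control libraries, so their points are not independent. For cytokines the KO3.20 point is at −0.34 and the NT point at −1.23, and marker lists with 3 to 5 tested genes rest on few values.

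Genes of cell state and adhesion moved in both directions. Of all tested genes, 6.49% were called higher and 6.11% lower against the controls, and the list counts that follow stand beside these shares. Of 29 genes of the undifferentiated or invasive melanoma state, 3 rose and 8 fell, with 3 falling without KO3.20 R2 and 6 rising without Par R2. SOX9, a factor of that state, had 12.9 and 12.5 CPM in KO3.20, against 17 and 17.7 CPM in KO1.4, 31.7 and 28.2 CPM in KO1.5, 36.2 and 32.5 CPM in NT and 44.3 and 37.5 CPM in Par. Both KO3.20 libraries lay below the other 8. The Schwann and melanocyte factor TFAP2A was at 1.08 ± 0.13. Of 26 genes of TGF-beta signalling, 6 rose and 3 fell, and the ligand TGFB1 had 42.2 CPM in KO3.20 and 13.3 CPM in the controls. Without KO3.20 R2 these counts were 3 and 0, without KO3.20 R1 the second was 1, and without Par R1 it was 5. Of 15 genes of ERBB receptors and ligands, 4 rose and 5 fell, with 1 falling without either KO3.20 library. ERBB2 had 3.79 and 2.29 CPM in KO3.20, against 10.3 and 8.8 CPM in KO1.4, 0.237 and 0.513 CPM in KO1.5, 9.3 and 11.8 CPM in NT and 12.9 and 18.3 CPM in Par. It was lower in KO3.20 than in KO1.4 and higher than in KO1.5, where it was nearly lost.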

How the data were processed

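Polyadenylated RNA of SKmel147 lines was made into directional libraries and sequenced, as the labels' protocols state. The authors deposited raw read counts per gene symbol, made with STAR 2.6.0 and featureCounts on the builds GRCh37 and hg19, per the submitters' processing notes. Whether reads were counted by strand, and what became of reads with several matches, is not given in the sources used here. Of 56629 symbols, 35358 matched GENCODE 29, which gave chromosome, map order, GC content and length only, and no coordinate of it is printed.

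Counts of the 10 SKmel147 libraries were fitted together in R 4.3.3 with edgeR 4.0.16 (TMM scaling, filterByExpr by line, 1 coefficient per line). The quasi-likelihood test was applied to each contrast, at a Benjamini-Hochberg (BH) adjusted p under 0.05 over all 18361 tested genes. The controls are the mean of NT and Par. CPM values use TMM-scaled library sizes, and SE is the log2 fold change divided by the root of F. The fit was tested on simulated data. Promoter sequences are from RefSeq (GRCh38.p14).

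The members and the 32 gene lists were chosen with earlier results of these data known. The naming rule took ARID2; from the genes set apart, 12 per direction with both KO3.20 libraries beyond the other 8, at least 5 CPM in the highest line and the largest smallest fold, above the difference of NT and Par; 8 per direction by fold against the controls; genes of opposite sign in KO1.4 and KO1.5; and up to 3 called and 2 set apart members per list; other genes were named after their values were seen. Alternatives were DESeq2 1.42.0 size factors and Wald test, no filter, a replicate block, either control alone, each library left out, the line as replicate, a GC and length correction, a 2-fold limit and, added after seeing the data, the 28S share as a term. Some genes that the rule took are not reported here, and no other file was analysed here.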

Additional observations from a re-analysis of the deposited data

Results flagged for a closer look

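Dixon's test flags about 1 in 20 groups of 4 by chance, and in 5 named genes 1 of the 4 control libraries stood far from the other 3. PCDHB15 was lowest in NT R1, at 0.407 CPM. NFIB was highest in Par R2, at 61.4 CPM. ERBB3 was highest in NT R2, at 3.64 CPM. NQO1, an antioxidant enzyme, was highest in Par R1, at 142 CPM. HLA-DRA was highest in Par R2, at 1790 CPM. In all 5 genes both KO3.20 libraries lay above every control library.

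Other named genes were called in opposite directions against the controls in KO3.20 and in another KO line, and the difference between the lines passed the test. KO3.20 minus KO1.5 was 5.44 for TIMP3, 3.29 for EDIL3 and 1.49 for CELF2 on the log2 scale, and KO3.20 minus KO1.4 was 2.97 for CELF2. In the other direction, KO3.20 minus KO1.5 was −1.12 for BMP2, −4.86 for KRT81, −4.41 for KRT86, −7.71 for KRT83 and −1.97 for KRTAP2-1. KRT83 had 0.0306 and 0 CPM in KO3.20, below the floor of 0.0478 CPM used for CPVL, so the size of its fold is uncertain. For KRT81 and KRT86 the mean of KO1.5 lay between those of NT and Par, so their rise in KO1.5 holds against the mean of the controls only. The causes of these differences were not tested.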

How the results depend on the processing

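Against the controls KO3.20 had 2312 called genes. With a 2-fold limit there were 820 (442 higher, 378 lower), with 456 against KO1.5 and 52 set apart (26 and 26). The DESeq2 Wald test gave 525 against KO1.4 and 80 set apart on the lower side. Without the low-count filter there were 687 against KO1.4, 1495 against KO1.5 and 236 set apart (127 and 109). With the line as replicate the counts were 0 against the controls, in both directions, and 0 set apart, and the only gene called against KO1.4 with KO1.5 made 1. The GC and length correction gave 3918 against the controls (1923 and 1995), 775 against KO1.4, 1921 against KO1.5, 293 set apart (127 and 166) and a chromosome 20 median of −0.349 against KO1.5. With the 28S share as a term there were 1552 against KO1.5 and 81 set apart on the lower side. The cause of these shifts was not tested, apart from the stricter limit and the larger number of genes tested without a filter. Of 10 pairs of lines, libraries with 1 number had r over 0.1 in 4 and below 0 in 6 (r from −0.430 to 0.501), so the numbers were not taken as pairs, and with a replicate block the counts were 2185, 317 and 890 against the controls, KO1.4 and KO1.5, with 102 set apart. Leaving out 1 library at a time gave 740 to 2559 genes against the controls, 439 to 1337 higher and 301 to 1222 lower, 63 to 535 against KO1.4, 260 to 1272 against KO1.5, and 17 to 191 set apart, 8 to 102 higher and 8 to 89 lower. The chromosome 20 medians then ranged from −0.308 to −0.236, −0.384 to −0.31 and −0.341 to −0.262 against the controls, KO1.4 and KO1.5, and those of chromosome 21 from 0.357 to 0.401, 0.323 to 0.355 and 0.286 to 0.322. Among genes with values under these alternatives, 2 that were not called changed sign, BRD7 to 0.018 against Par alone and −0.136 to 0.002 with 1 library left out, and IL6 to −0.602 against Par alone, while IL6 was called higher against NT alone and without Par R2 (1.355 and 0.731). IL11, CCL2 and COL5A1 lost their calls against the controls without KO3.20 R1, IL11, CCL2, JUN and MYC without KO3.20 R2, IL11 without NT R1, and CDKN1A gained one without Par R1.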

Other observations

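Lists not described above moved in both directions against the controls, and all counts here are of members called higher and lower in KO3.20, where 6.49% and 6.11% of all tested genes were. Of 34 genes of collagens and matrix, 8 were higher and 6 lower, with COL5A1 at 1.21 ± 0.22 and LOX, a lysyl oxidase, at −1.10 ± 0.16 on the log2 scale. Of 25 genes of the plasminogen system and metalloproteases, 6 were higher and 5 lower. PLAT, the tissue plasminogen activator, had 328 and 309 CPM in KO3.20, against 357 and 341 CPM in KO1.4, 260.0 and 264 CPM in KO1.5, 79.2 and 103 CPM in NT and 146 and 142 CPM in Par, with all KO lines above the controls. Of 34 axon guidance genes, 6 were higher and 5 lower, and of 31 integrins and adhesion genes, 5 were higher and 1 lower. ITGB8, an integrin that activates latent TGF-beta, had 607 CPM in KO3.20 and 301 CPM in the controls. Of 30 genes of MAPK feedback and immediate early response, 7 were higher and 4 lower, with FOS at 2.06 ± 0.28 and MYC at −0.74 ± 0.13. COL5A1 lost its call without KO3.20 R1, and MYC without KO3.20 R2.

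Of 28 apoptosis regulators, 2 were higher and 6 lower, and of 17 cancer-testis antigens, 0 were higher and 5 lower. The shares of all tested genes beside these and the following counts are again 6.49% higher and 6.11% lower. The counts were 3 and 5 of 33 for lysosomal genes, 4 and 5 of 28 for YAP targets, 3 and 5 of 29 for hypoxia and glycolysis, and 2 and 3 of 28 for glutathione metabolism. They were 3 and 1 of 19 for melanocyte genes, with 14 of the 30 listed genes under 1 CPM in both KO3.20 libraries. Among marker lists they were 2 and 0 of 5 for fibroblasts, 2 and 0 of 5 for keratinocytes, 0 and 0 of 3 for immune cells, 0 and 2 of 4 for endothelium, and 2 and 1 of 10 for Schwann cells and the neural crest. Without KO3.20 R1 or R2, 2 and 2 apoptosis genes, and 2 and 1 axon guidance genes, were lower, 5 and 5 matrix genes were higher, and 3 and 2 integrin genes were higher.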
